A study of Mus musculus with 15 samples.

Results

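Mouse E14 embryonic stem (ES) cells that received a LINE1 antisense oligonucleotide (ASO) together with an siRNA against Dux were set against cells that received the control ASO labelled RC together with a control siRNA, to see what differed once both treatments were combined. The members were all libraries the labels place in these groups: 3 LINE1 siDux libraries and 3 RC siControl libraries, 6 of the 15 in the series. The other groups, used here only for reference, were LINE1 siControl (LINE1 ASO with the control siRNA), RC siDux (RC ASO with the Dux siRNA) and RC siNcl (RC ASO with an siRNA against Ncl), with 3 libraries each. All cells were of the single line E14Tg2A, grown in serum and LIF, and all groups went through both procedures. Each nucleofection carried 5 nmol of ASO, 100 pmol of siRNA per well followed after 7 hours of recovery, and unsorted cells were collected on day 2, so that untransfected cells could be part of every library. Whether the replicates are separate cultures is not in the labels, and the p-values therefore measure no more than the spread between these libraries, which may be technical.

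LINE1 elements are retrotransposons that copy themselves through an RNA intermediate, and their transcripts are abundant in early mouse embryos and ES cells. Dux is a homeobox transcription factor that switches on genes and MERVL retrotransposons of the 2-cell embryo. A small fraction of ES cells passes through a 2-cell-like state in which Dux targets such as the Zscan4 and Tcstv families are transcribed. Earlier work placed LINE1 RNA, with the nucleolar protein nucleolin (Ncl) and the co-repressor Trim28, among the repressors of Dux.

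Gene counts summed to between 22712909 and 27564371 in LINE1 siDux libraries and between 10107139 and 17392926 in RC siControl libraries, and ERCC spike-ins added 0.363% to 0.652% of these sums in LINE1 siDux and 0.303% to 0.647% in RC siControl libraries. On the first principal component of all 15 libraries the RC siControl libraries lay at one end, at -28.4, -46.1 and -25.3, while every other library lay at -14.7 or above, RC siDux included. RC siControl replicate 2 stood apart further: its 10 largest genes took 6.24% of its counts, against 5.08% to 5.09% in the other two. All values below are in CPM, the count of a gene scaled to a common library total after TMM normalisation and not corrected for gene length, and changes are log2 changes ± SE from edgeR's quasi-likelihood fit over all 15 libraries. A gene was called at a Benjamini-Hochberg adjusted p under 0.05. The samples were bulk cultures, so fewer cells expressing a gene and less RNA per cell cannot be told apart.

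The targets were examined first. Dux counts were few: 19, 11 and 12 reads in LINE1 siDux libraries, 25, 18 and 24 in LINE1 siControl, 2, 0 and 5 in RC siDux and 4, 1 and 3 in RC siControl. In LINE1 siDux libraries Dux was therefore at 0.642, 0.459 and 0.512 CPM, against 0.410, 0.0957 and 0.178 CPM in RC siControl libraries, and these groups did not overlap. Dux did not pass the test against RC siControl (1.29 ± 0.61, edgeR adjusted p = 0.118), against LINE1 siControl (-1.07, adjusted p = 0.298) or against RC siDux (1.57, adjusted p = 0.171), so its count checks the siDux label only weakly. With all libraries thinned to the smallest total Dux was called higher against RC siDux (3.95, edgeR adjusted p = 0.0293). The thinning was a single random draw and could not raise the 2, 0 and 5 reads of RC siDux, so this call rests on very few reads. Dux lies in near-identical tandem copies, and the sources used here do not give how reads with several matches were counted, which leaves its level uncertain. The 6 L1Md subfamilies, which include the young LINE1 elements, summed to 8888, 8481 and 6076 CPM in LINE1 siDux libraries and 6837, 3621 and 4498 CPM in RC siControl libraries. This sum was not lower with the LINE1 ASO (exact permutation test on log2 values, two-sided p = 0.2, the smallest possible being 0.1), so RNA of these repeats does not check the LINE1 label. The same sum was 9463, 8071 and 5691 CPM in RC siDux libraries, so the RC siControl libraries were also low against another group with the RC ASO.

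Genes of the 2-cell-like state remained above the control when both treatments were combined, but far below their level with the LINE1 ASO alone. Of 66 listed 2-cell-like genes, 51 were in the table and 37 passed the filter on low counts, and 16 of the 37 rose and none fell in LINE1 siDux against RC siControl cells. Over all 14696 genes tested, 16.7% were called higher and 16.2% lower in this comparison. The list's median log2 change was 0.93, against 0.0045 for all genes tested. In each comparison made by leaving out 1 library, 13 to 15 of the list's genes were called higher, and with scaling to the spike-ins 8. Summed over the 51 genes, LINE1 siDux libraries held 127 to 172 CPM, LINE1 siControl libraries 282 to 321 CPM, RC siDux libraries 42.4 to 75.4 CPM, RC siNcl libraries 276 to 459 CPM and RC siControl libraries 57.4 to 69.3 CPM.

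The 4 Zscan4 genes whose RefSeq promoters share the letters TGAT and AATCA with 2 bases of any kind between them are shown here because 3 of them rose. Human DUX4, the counterpart of Dux, is known to bind sites ending in AATCA. The motif was chosen after promoter letters had been seen, it was searched on both strands, and capitals mark its match. The windows are from RefSeq's GRCm38.p6 promoters, each written 5′ to 3′ on the gene's strand, and lie upstream of the annotated start.
Zscan4b, chr7:10905111-10905161, minus strand: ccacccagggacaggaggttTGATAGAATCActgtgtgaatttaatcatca
Zscan4c, chr7:11005611-11005661, plus strand: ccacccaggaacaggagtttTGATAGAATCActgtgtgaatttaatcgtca
Zscan4d, chr7:11166243-11166293, minus strand: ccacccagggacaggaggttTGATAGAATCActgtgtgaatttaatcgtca
Zscan4f, chr7:11397804-11397854, plus strand: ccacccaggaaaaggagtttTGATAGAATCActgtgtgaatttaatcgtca
Of the 51 bases, 47 were the same in all 4 windows, so these genes share their sequence and are not independent examples. The match began at -91 in Zscan4b and Zscan4f, -114 in Zscan4c and -125 in Zscan4d, counted from the annotated start. The letters occur in 0.207% of 32851 mouse promoters of the same length and in 4 of the 26 listed 2-cell-like genes that have a promoter in the table.

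Zscan4c encodes a zinc finger protein of the 2-cell embryo that is tied to telomere maintenance in ES cells. It was at 5.47, 5.47 and 6.49 CPM in LINE1 siDux libraries and at 2.56, 2.78 and 1.72 CPM in RC siControl libraries. All 3 LINE1 siDux libraries were higher, with a log2 change of 1.34 ± 0.28 (edgeR adjusted p = 0.00258), and with libraries scaled to the spike-ins the change was as large but not called (1.42, adjusted p = 0.0656). With the LINE1 ASO and the control siRNA the same gene was at 20.5, 18.4 and 17.3 CPM, and with the RC ASO and the Dux siRNA at 0, 0.176 and 0.512 CPM. Zscan4c therefore fell by 1.69 against LINE1 siControl (adjusted p = 0.00352) and rose by 4.48 against RC siDux (adjusted p = 2.57e-05), with LINE1 siDux between both single treatments in every library.

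Its paralogues followed the same order of groups. Zscan4d was at 6.35, 4.47 and 5.76 CPM in LINE1 siDux libraries and 1.95, 1.44 and 1.96 CPM in RC siControl libraries, a rise of 1.62 ± 0.31. Zscan4f was at 4.70, 3.67 and 3.50 CPM in LINE1 siDux libraries and 1.74, 1.44 and 1.07 CPM in RC siControl libraries, a rise of 1.53 ± 0.32. Neither gene's groups overlapped. Zscan4b, named after its values were seen because it carries the motif, changed by 0.70 ± 0.62 and was not called, at 0.338, 0.334 and 0.384 CPM in LINE1 siDux libraries and 0.103, 0.191 and 0.297 CPM in RC siControl libraries. Reads of these paralogues may be shared between copies, so the values are uncertain for each gene taken alone.

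Other 2-cell-like genes differed in how much remained. Dub1, a deubiquitinase gene with close copies, was at 7.26, 4.63 and 7.04 CPM in LINE1 siDux libraries, against 2.67, 2.49 and 1.72 CPM in RC siControl libraries (1.5 ± 0.25). Gm12794 was at 3.65, 4.05 and 4.52 CPM, against 2.15, 1.05 and 1.54 CPM in RC siControl libraries (1.37 ± 0.29). Tcstv3 was at 5.20, 4.09 and 5.16 CPM, against 3.08, 2.58 and 2.08 CPM in RC siControl libraries (0.93 ± 0.25). None of these genes' groups overlapped, and with scaling to the spike-ins Gm12794 (1.38) and Tcstv3 (1.0) changed by as much but were not called. The related gene Tcstv1 was not called, at 7.13, 5.43 and 8.62 CPM in LINE1 siDux libraries and 4.10, 7.37 and 4.28 CPM in RC siControl libraries, where replicate 2 lay within the range of the LINE1 siDux libraries (0.44 ± 0.29, adjusted p = 0.265). Zscan4a (0.60 ± 0.31) and Zfp352 (0.10 ± 0.41), a zinc finger gene of the 2-cell embryo, were not called either. Gm8994 was called at 0.98 ± 0.29, but not without LINE1 siDux replicate 3 (0.88) nor without RC siControl replicate 1 (0.88).

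**Figure D1:**
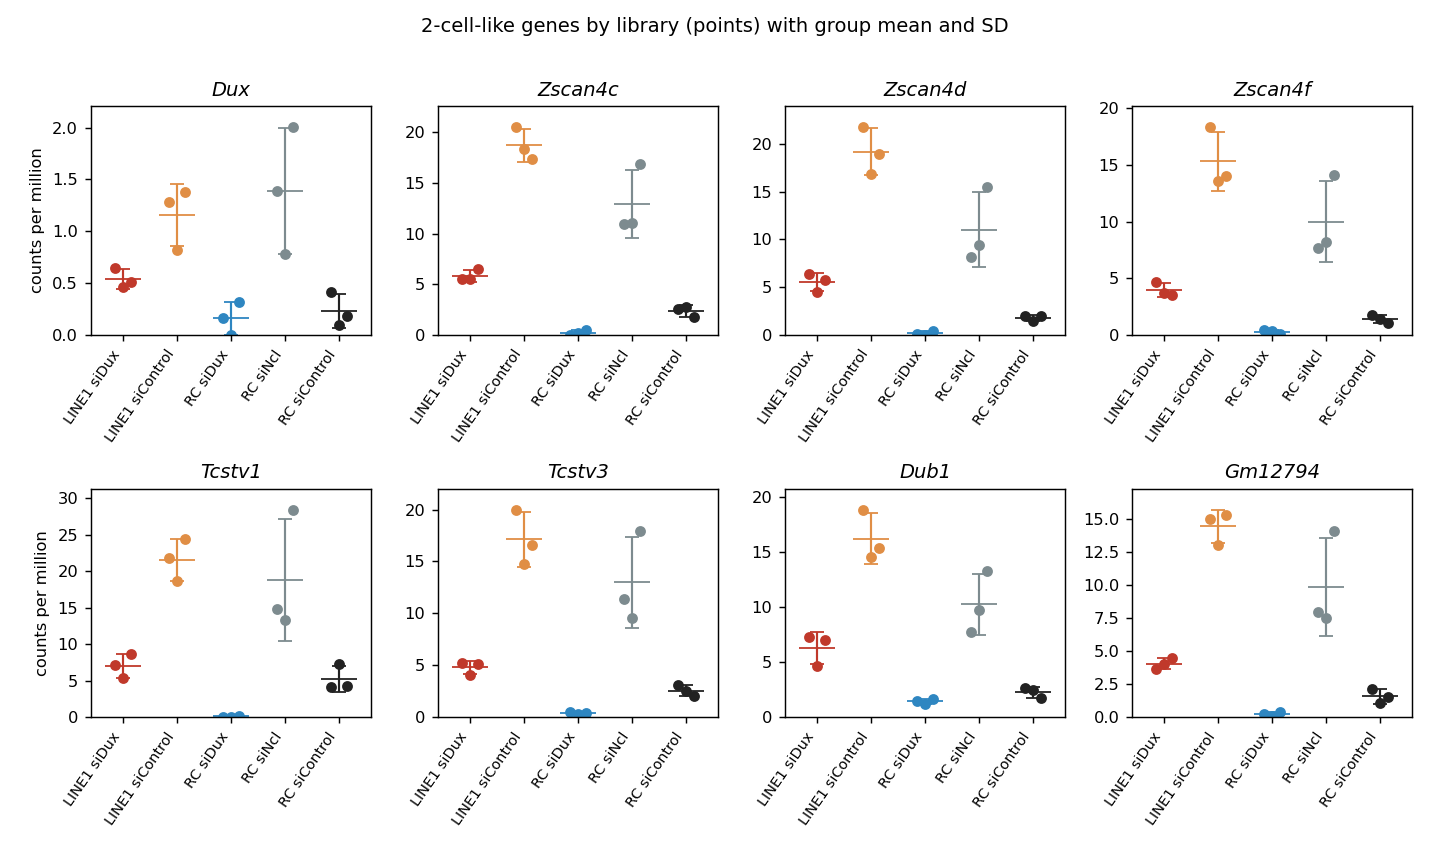
Levels in CPM of 8 genes of the 2-cell-like state in each library of the 5 groups (points), with the group mean (line) and SD (bars, n = 3). For Zscan4c the LINE1 siDux libraries sit at 5.47 to 6.49 CPM, below LINE1 siControl at 17.3 to 20.5 CPM and above RC siControl at 1.72 to 2.78 CPM. The Dux panel rests on 42 reads in all 3 LINE1 siDux libraries.

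Against each single treatment the list split in opposite directions. Against LINE1 siControl, where 0.544% of all genes were called higher and 0.306% lower, 22 of 37 2-cell-like genes fell and none rose (median -1.61). With the replicate number as a block 28 fell and 1 rose. Against RC siDux, where 2.31% of all genes were called higher and 0.749% lower, 24 of 37 rose and none fell (median 2.76). With 1 library left out, the falls against LINE1 siControl numbered 6 without LINE1 siDux replicate 2, 9 without LINE1 siControl replicate 3, 11 without LINE1 siDux replicate 1 or LINE1 siControl replicate 2, 13 without LINE1 siControl replicate 1 and 15 without LINE1 siDux replicate 3, and 6 with the spike-ins. The rises against RC siDux then numbered 18 to 22. The 5 largest falls against LINE1 siControl by the naming rule were all of this list: Zscan4a (-1.96), Zscan4f (-1.95), Gm12794 (-1.83), Tcstv3 (-1.83) and B020031M17Rik (-1.81). The largest rises against RC siDux were Tcstv1 (5.46), Zscan4d (4.91), Zscan4c (4.48), 5330417C22Rik (3.55) and Gm8994 (2.85), and of these 5330417C22Rik is not on the list. Both comparisons and the one with RC siControl share the LINE1 siDux libraries.

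A second kind of member did not follow the single treatments in this way. Zfp750, a zinc finger transcription factor of differentiating epithelia, was at between 17.6 and 24.7 CPM in the 3 LINE1 siDux libraries and 7.07, 4.31 and 4.75 CPM in RC siControl libraries, a rise of 1.95 ± 0.21. Ddit4l, an inhibitor of mTOR signalling, was at 30.4, 32.1 and 46.1 CPM in LINE1 siDux libraries and 11.4, 11.3 and 9.21 CPM in RC siControl libraries, a rise of 1.78 ± 0.19. These genes' groups did not overlap. Neither passed the test against LINE1 siControl (0.72 and 0.60) or against RC siDux (0.14 and 0.39), although with the replicate number as a block Zfp750 was called against LINE1 siControl (0.71, edgeR adjusted p = 0.0319). Among members with few reads, Tdpoz3 had 34 reads over the LINE1 siDux libraries and 2 over the RC siControl libraries, and Gm10696 had 144 and 12. BC080695 had 21 reads over the LINE1 siDux libraries and 0 over the RC siControl libraries, at least 3.37-fold higher when RC siControl is set to 3 counts over the group. These low genes were named after their values were seen, and the list's median stays 0.93 with BC080695 at this bound.

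MERVL, the retrovirus whose LTR (MT2_Mm) drives many transcripts of the 2-cell embryo, was measured in the table of repeats, which was scaled with the gene totals and gene TMM factors. MERVL-int was at 790, 686 and 958 CPM in LINE1 siDux libraries, 2116, 1811 and 2048 CPM in LINE1 siControl libraries, 464, 477 and 417 CPM in RC siDux libraries and 651, 370 and 568 CPM in RC siControl libraries. All 3 LINE1 siDux libraries were above all RC siControl libraries, but the change of 0.62 ± 0.22 was not called (edgeR adjusted p = 0.0674). It was called in DESeq2 (0.61), with no filter (0.62), with the replicate number as a block (0.62) and without RC siControl replicate 1 (0.80). Against LINE1 siControl MERVL-int fell by 1.30 (adjusted p = 0.00593), and it was not called there without LINE1 siDux replicate 1 (-1.28) or replicate 2 (-1.19). MT2_Mm was at 96.1, 87.2 and 111 CPM in LINE1 siDux libraries and 79.0, 82.7 and 70.9 CPM in RC siControl libraries (0.34 ± 0.17, adjusted p = 0.172), and fell by 1.16 against LINE1 siControl. These were the only 2 of 800 repeat subfamilies called against LINE1 siControl, where 0% were called higher and 0.25% lower.

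Outside the 2-cell-like genes the combined treatment still differed widely from the control. Of 14696 genes tested, 2449 were higher and 2388 lower in LINE1 siDux than in RC siControl cells, and 952 of the higher and 132 of the lower genes changed at least 2-fold. At least 4-fold, 288 genes were higher and 4 lower. Without LINE1 siDux replicate 1 the lower genes numbered 1456, and in a fit of only these 6 libraries 1542 genes were higher and 1039 lower. Scaling to the spike-ins left 489 genes higher and 10 lower while the median change of all genes moved to 0.095, and the spike-in share varied within both groups. By contrast, 80 genes were higher and 45 lower against LINE1 siControl, and 340 higher and 110 lower against RC siDux. These smaller counts depended on single libraries: without any one of the 6 libraries, 4 to 34 genes were higher and 7 to 18 lower against LINE1 siControl. Against RC siDux 115 were higher and 11 lower without LINE1 siDux replicate 1, 166 and 19 without LINE1 siDux replicate 2, 89 and 17 without RC siDux replicate 1 and 94 and 12 without RC siDux replicate 2. Replicates with the same number deviated together in LINE1 siDux and LINE1 siControl, and with the replicate number as a block 305 genes were higher and 141 lower in that comparison.

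**Figure D2:**
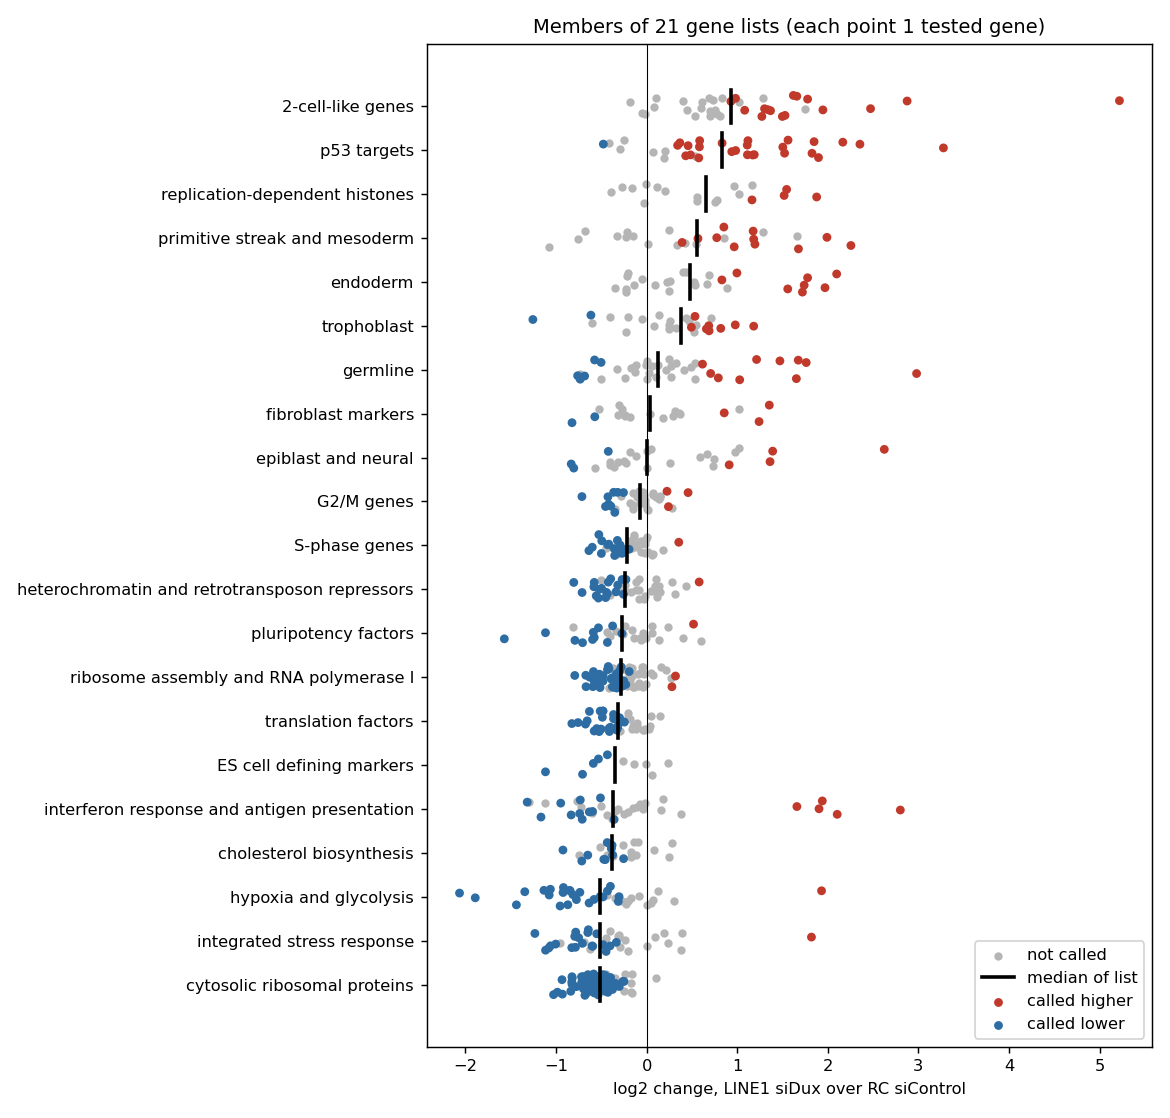
Log2 change of LINE1 siDux over RC siControl (horizontal axis) for every tested member of 21 gene lists, with 1 point per gene, called genes in red (higher) or blue (lower), others in grey, and a black bar at each list's median. The 2-cell-like list (median 0.93) and the p53 targets (median 0.83) lie furthest to the right, and the cytosolic ribosomal proteins, the integrated stress response and the hypoxia genes (medians -0.52, -0.52 and -0.51) lie furthest to the left.

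Targets of the tumour suppressor p53, a transcription factor stabilised by DNA damage and other stresses, formed the list with the largest count of rises. Of 33 tested, 25 rose and 1 fell, with a median log2 change of 0.83, where 16.7% of all genes rose. The one that fell was Bax (-0.48 ± 0.16), a pro-apoptotic gene named after its values were seen, and it was not called without LINE1 siDux replicate 1 (-0.42), LINE1 siDux replicate 2 (-0.49) or RC siControl replicate 2 (-0.15). Mdm2, the ubiquitin ligase that degrades p53, was at 510, 541 and 693 CPM in LINE1 siDux libraries and 166, 162 and 141 CPM in RC siControl libraries. The groups were far apart, with a log2 change of 1.90 ± 0.14 (edgeR adjusted p = 2.86e-07). With scaling to the spike-ins 9 of the list's genes were called higher.

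Cdkn1a encodes p21, the inhibitor of cyclin-dependent kinases through which p53 arrests the cell cycle. It was at 69.4, 68.9 and 114 CPM in LINE1 siDux libraries and 39.0, 35.9 and 41.3 CPM in RC siControl libraries (1.1 ± 0.20, edgeR adjusted p = 0.00078). LINE1 siDux replicate 3 was the highest, the groups did not overlap, and with scaling to the spike-ins the change was 1.11 but not called (adjusted p = 0.17). It was the 1 listed target of 27 with a promoter in the table whose promoter matched the full p53 consensus. That consensus is of paired half-sites with a gap allowed between them, and 0.0731% of all promoters match it. The window is from GRCm38.p6, plus strand, and the match in capitals begins at -73 from the annotated start. The capitals include the bases between the paired half-sites. A half-site that departs from the consensus would remain in lower case, and whether p53 binds this stretch was not tested.
Cdkn1a, chr17:29090886-29090957: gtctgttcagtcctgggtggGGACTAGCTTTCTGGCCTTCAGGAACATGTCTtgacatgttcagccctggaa

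Ptprv, a phosphatase gene induced by p53 in the mouse, was at 40.2, 41.1 and 51.9 CPM in LINE1 siDux libraries and 10.2, 8.23 and 7.84 CPM in RC siControl libraries (2.35 ± 0.16). Trp53inp1, a p53-induced nuclear protein, was at 649, 648 and 701 CPM in LINE1 siDux libraries and 213, 242 and 223 CPM in RC siControl libraries (1.56 ± 0.12). Ephx1, an epoxide hydrolase, was at 34.4, 33.3 and 35.1 CPM in LINE1 siDux libraries and 13.7, 11.0 and 11.2 CPM in RC siControl libraries (1.52 ± 0.12). No library of one group reached the other in these genes. The death receptor Fas was at 4.63, 4.05 and 6.57 CPM in LINE1 siDux libraries and 0.513, 0.670 and 0.416 CPM in RC siControl libraries (3.28 ± 0.37). Trp53 itself, named after its values were seen, did not pass the test (0.08 ± 0.09).

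The p53 targets were not at the RC siControl level in the other groups. Mdm2 was at 374, 330 and 349 CPM in LINE1 siControl libraries, 380, 328 and 479 CPM in RC siDux libraries and 841, 866 and 1038 CPM in RC siNcl libraries, so that RC siNcl libraries were above those with LINE1 siDux. Against LINE1 siControl 4 of the 33 targets rose and none fell (median 0.37), or 13 with the replicate number as a block, where Cdkn1a (0.52, edgeR adjusted p = 0.0339) and Fas (0.96, adjusted p = 0.0183) were called too. Without the block, those that rose were Mdm2 (0.73), Ptprv (0.77), Ephx1 (0.49) and Perp. Against RC siDux 7 rose and none fell (median 0.27), among them Fas (1.40), Trp53inp1 (0.74), Ephx1 (0.58) and Mdm2 (0.55), while Ptprv did not differ by the test (0.21). Against LINE1 siControl none of the 33 was called without LINE1 siDux replicate 2, LINE1 siDux replicate 3, LINE1 siControl replicate 2 or LINE1 siControl replicate 3, and 1 without LINE1 siControl replicate 1. Against RC siDux 1 was called without RC siDux replicate 1 or RC siDux replicate 2, 2 without LINE1 siDux replicate 1 and 3 without LINE1 siDux replicate 2 or LINE1 siDux replicate 3. The calls of Mdm2, Ptprv and Ephx1 against LINE1 siControl were each lost without at least 1 library, with values of 0.58 to 0.78 for Mdm2, 0.64 to 0.82 for Ptprv and 0.40 to 0.55 for Ephx1.

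**Figure D3:**
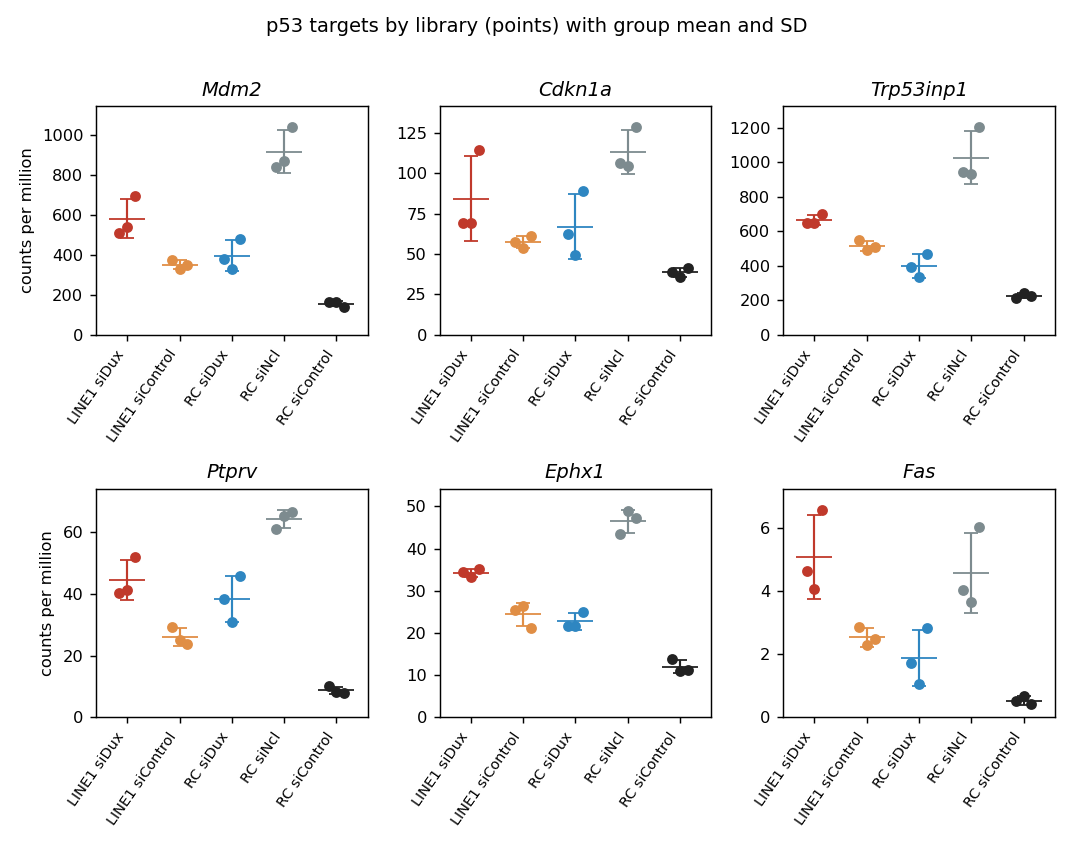
Levels in CPM of 6 p53 targets in each library of the 5 groups (points), with the group mean (line) and SD (bars, n = 3). In each panel the 3 LINE1 siDux libraries lie above the 3 RC siControl libraries, and for Mdm2 the LINE1 siControl and RC siDux libraries lie between them.

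The largest rises by the naming rule included genes known from several kinds of tissue. Krt15, a keratin of basal epithelia, was at 4.97, 5.47 and 10.6 CPM in LINE1 siDux libraries and 0, 0.287 and 0.238 CPM in RC siControl libraries. Only 7 reads in all 3 RC siControl libraries support the reference level, so its log2 change of 5.16 ± 0.61 is imprecise. The other groups stood above RC siControl too. Krt15 had 64, 56 and 42 reads in LINE1 siControl libraries, 22, 33 and 98 in RC siDux libraries and 26, 21 and 44 in RC siNcl libraries. Dusp13, a dual-specificity phosphatase, was at 4.80, 4.76 and 6.23 CPM in LINE1 siDux libraries and 0.103, 0.287 and 0.238 CPM in RC siControl libraries (4.56 ± 0.42). The naming rule admits only genes whose groups do not overlap, which over all genes tested held for 21.4% with LINE1 siDux higher and for 19.9% with LINE1 siDux lower.

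Other rises of this set were Arhgef33, a guanine nucleotide exchange factor gene (4.40), Apol8, an apolipoprotein L gene (4.10), the vitamin D receptor gene Vdr (3.99), the matrilins Matn4 (3.90) and Matn1 (3.45) of cartilage matrix, the leukotriene receptor Ltb4r2 (3.66), the carboxypeptidase Cpz (3.65), the G-protein regulator Rgs14 (3.56), the phospholipase Plcd4 (3.34), Fas (3.28), the integrin Itgb2 of white blood cells (3.26) and the thioesterase Them5 (3.23). Ltb4r2 had 164, 178 and 251 reads in RC siNcl libraries and 142, 136 and 199 in LINE1 siDux libraries, whose gene totals were larger. Arhgef33 stood above the control with the LINE1 ASO alone too. It was at 8.14, 8.56 and 9.26 CPM in LINE1 siDux libraries, 6.87, 6.38 and 5.35 CPM in LINE1 siControl libraries, 1.23, 0.882 and 1.98 CPM in RC siDux libraries and 0.205, 0.479 and 0.475 CPM in RC siControl libraries. Msln, a cell surface glycoprotein of mesothelium, was at 19.5, 20.4 and 16.3 CPM in LINE1 siDux libraries, 8.20, 7.42 and 5.92 CPM in LINE1 siControl libraries and 3.18, 2.97 and 1.96 CPM in RC siControl libraries. It rose by 1.38 against LINE1 siControl, the largest rise by the naming rule, followed by Ltb4r2 (1.31), Fbp2 (1.27), Hist1h2bc (1.26) and Pvrl4 (1.26). Except for Msln, each of these calls against LINE1 siControl was lost without at least 1 library, with values between 0.94 and 1.48.

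Most listed genes of the hypoxia response and of glycolysis fell. Many of these genes are targets of the oxygen-sensitive factor HIF1, and the glycolytic enzymes turn glucose into pyruvate. Of 37 tested, 24 fell and 1 rose (median -0.51), where 16.2% of all genes fell. Bnip3, a mitophagy receptor induced in hypoxia, was at 47.5, 67.9 and 30.9 CPM in LINE1 siDux libraries and 159, 308 and 147 CPM in RC siControl libraries, the largest fall by the naming rule (-2.07 ± 0.36, edgeR adjusted p = 0.000635). Egln3, a prolyl hydroxylase that marks HIF1 for degradation, was at 12.1, 19.9 and 12.0 CPM in LINE1 siDux libraries and 34.7, 46.9 and 37.5 CPM in RC siControl libraries (-1.44 ± 0.27). In both genes replicate 2 was the highest within each group.

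Glycolytic enzymes fell less. Pgk1, phosphoglycerate kinase, was at 729, 808 and 672 CPM in LINE1 siDux libraries and 1254, 1761 and 1268 CPM in RC siControl libraries (-0.96 ± 0.14). Tpi1, triose phosphate isomerase, was at 396, 438 and 371 CPM in LINE1 siDux libraries and 678, 927 and 679 CPM in RC siControl libraries (-0.92 ± 0.13). Pdk1, a kinase that inhibits pyruvate dehydrogenase, was at 139, 145 and 92.7 CPM in LINE1 siDux libraries and 258, 271 and 259 CPM in RC siControl libraries (-1.06 ± 0.15). All LINE1 siDux libraries were below all RC siControl libraries in these genes. The 1 listed gene that rose was Pfkfb4, a regulator of fructose bisphosphate levels (1.93 ± 0.24). Hif1a, the HIF1 subunit gene, named after its values were seen, did not pass the test (0.13 ± 0.08). Further falls included Adm, the vasodilator adrenomedullin, named in the same way (-1.89 ± 0.46), Ankrd37 (-1.35 ± 0.35) and Ndufa4l2 (-1.48 ± 0.47). Ankrd37 was not called without RC siControl replicate 2 (-0.87), and Ndufa4l2 was not called without LINE1 siDux replicate 1 (-1.48), LINE1 siDux replicate 3 (-1.21) or RC siControl replicate 2 (-1.02).

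With scaling to the spike-ins 2 of the 37 hypoxia and glycolysis genes were called lower. Against RC siDux 9 fell and none rose (median -0.33), Egln3 (-1.26) among them, and against LINE1 siControl none was called (median -0.11), or 4 lower with the replicate number as a block. The falls against RC siDux numbered 0 without LINE1 siDux replicate 1 or RC siDux replicate 2, 1 without RC siDux replicate 1 and 2 without LINE1 siDux replicate 2 or LINE1 siDux replicate 3. The letters TACGTG, one form of the site that HIF1 binds, were searched on both strands of the promoters and were found in 9 of 34 listed genes with a promoter, against 3.23% of all promoters. Of the 9, 6 fell, and of the 23 tested genes without the letters 17 fell. One window of Ankrd37, which holds the letters at -242 and again at -7 from its start, is shown with the first match in capitals, from GRCm38.p6, minus strand.
Ankrd37, chr8:46000067-46000100: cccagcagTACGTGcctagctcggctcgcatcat

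Genes of the integrated stress response, which the factor ATF4 switches on when amino acids are short, were called lower more often than the 16.2% of all genes. Of 38 tested, 20 fell and 1 rose (median -0.52). Psat1, phosphoserine aminotransferase of serine synthesis, was at 237, 238 and 267 CPM in LINE1 siDux libraries and 468, 512 and 627 CPM in RC siControl libraries (-1.12 ± 0.13, edgeR adjusted p = 1.79e-05). The other enzymes of this pathway, named after their values were seen, fell as well: Phgdh was at 102, 104 and 108 CPM in LINE1 siDux libraries and 178, 343 and 219 CPM in RC siControl libraries (-1.23 ± 0.18), and Psph changed by -1.08 ± 0.17. RC siControl replicate 2 was the highest for Phgdh, and the groups did not overlap. Aldh1l2, a mitochondrial folate enzyme, was among the 15 largest falls (-1.49 ± 0.27).

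The list also holds genes of aminoacyl-tRNA synthetases, which load tRNAs with amino acids. Aars, which charges alanine tRNA, was at 434, 419 and 437 CPM in LINE1 siDux libraries and 676, 723 and 772 CPM in RC siControl libraries (-0.75 ± 0.09). Sars, for serine, was at 226, 211 and 198 CPM in LINE1 siDux libraries and 361, 527 and 387 CPM in RC siControl libraries (-1.0 ± 0.13), and Nars, for asparagine, changed by -0.79 ± 0.10. In each of these genes the lowest RC siControl library was above the highest LINE1 siDux library. Atf3, a stress-induced transcription factor named after its values were seen, was the 1 member that rose, at between 13.9 and 22.5 CPM in the 3 LINE1 siDux libraries and 3.69, 4.21 and 7.37 CPM in RC siControl libraries (1.82 ± 0.40). Without LINE1 siDux replicate 3, RC siControl replicate 2 or RC siControl replicate 3 the genes of the list called higher numbered 2. Atf4 itself did not pass the test (-0.21 ± 0.10). With scaling to the spike-ins none of the list was called lower, and against RC siDux 5 fell and none rose (median -0.20), but none fell without LINE1 siDux replicate 2 or RC siDux replicate 2, 1 without LINE1 siDux replicate 1, 2 without RC siDux replicate 1 and 3 without LINE1 siDux replicate 3.

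The letters TGATGNAA, the form of composite site that ATF4 binds with CEBP factors, were found on either strand in 12 of 32 listed promoters, against 3.97% of all promoters. Of the 11 tested genes with the letters 4 fell and 1 rose, and of the 20 without them 11 fell. Aars holds the letters at -112 and again at 10 from its start, each time read on the opposite strand. One window of Aars is shown with the first match in capitals, from GRCm38.p6, plus strand.
Aars, chr8:111033710-111033757: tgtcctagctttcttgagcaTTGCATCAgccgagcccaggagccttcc

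**Figure D4:**
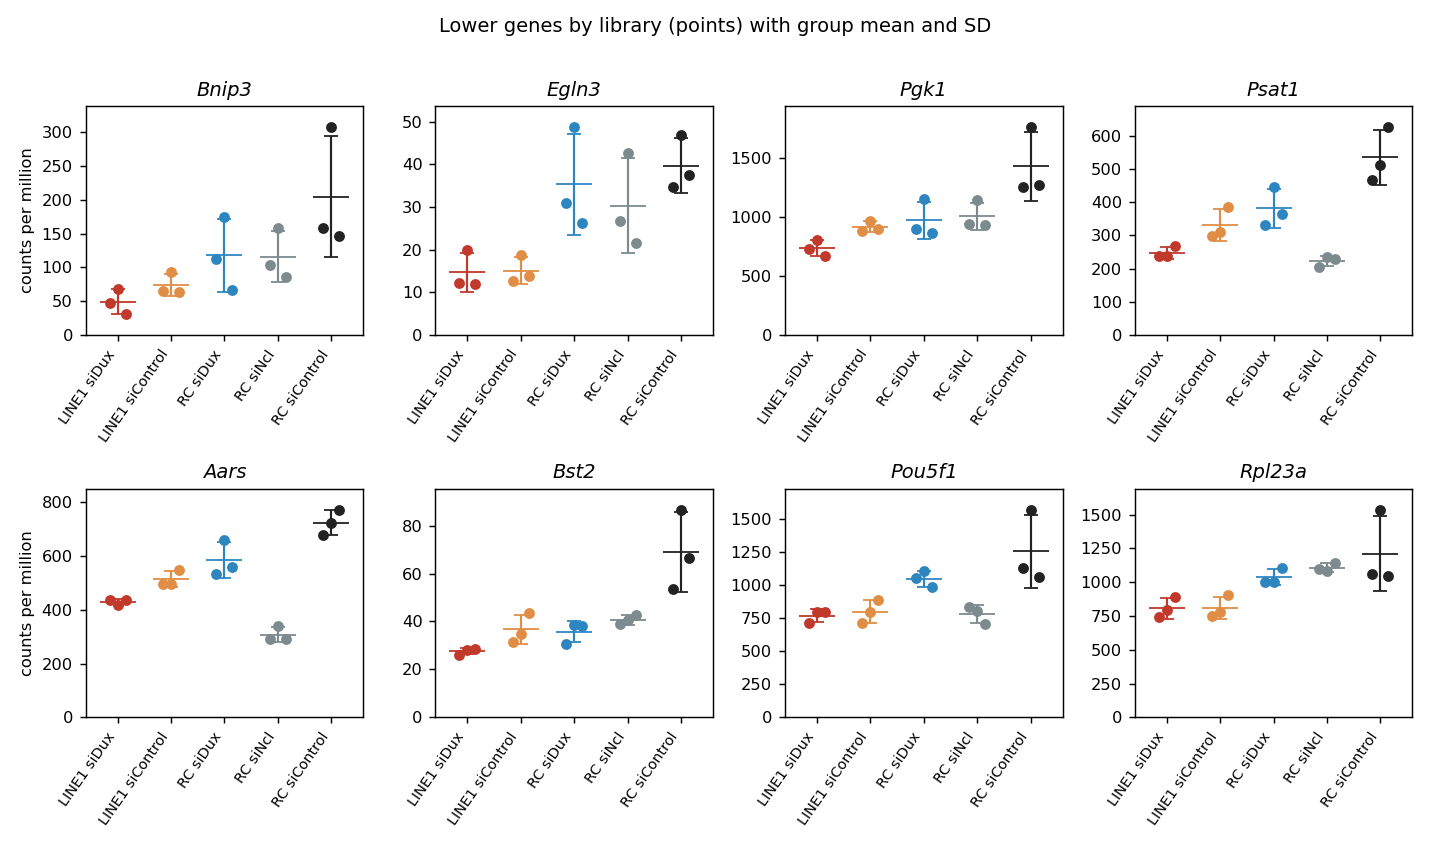
Levels in CPM of 8 genes that fell in LINE1 siDux against RC siControl cells, in each library of the 5 groups (points), with the group mean (line) and SD (bars, n = 3). In every panel the LINE1 siDux libraries lie below the RC siControl libraries, and for Rpl23a and Pou5f1 the RC siControl replicate 2 point is the highest of the 15.

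The protein synthesis machinery fell by small amounts in most of its genes. Of 75 cytosolic ribosomal protein genes tested, 66 fell and none rose, with changes between -1.03 and 0.11 and a median of -0.52. Over all genes tested, 16.2% fell and 16.7% rose. Rpl23a of the large subunit was at 739, 793 and 890 CPM in LINE1 siDux libraries and 1057, 1536 and 1042 CPM in RC siControl libraries (-0.59 ± 0.13). It was lower in every LINE1 siDux library and highest in RC siControl replicate 2. In the fit of these 6 libraries alone 22 ribosomal protein genes were called lower, and none with scaling to the spike-ins. Against RC siDux 1 of the 75 fell (median -0.26), and against LINE1 siControl none was called (median -0.04).

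Of 68 genes of ribosome assembly and RNA polymerase I, 35 fell and 2 rose (median -0.28), against 16.2% and 16.7% of all genes. Rrp1, which processes rRNA, was at 152, 170 and 202 CPM in LINE1 siDux libraries and 254, 314 and 242 CPM in RC siControl libraries (-0.63 ± 0.12). Dkc1, the pseudouridine synthase dyskerin, changed by -0.52 ± 0.10, Ltv1 by -0.54 ± 0.10 and Utp14a by -0.59 ± 0.11. The 2 that rose were Utp20 (0.32 ± 0.09) and Taf1a (0.28 ± 0.10), both named after their values were seen. The lower genes numbered 18 without LINE1 siDux replicate 1, 23 without LINE1 siDux replicate 2, 13 in the fit of 6 libraries and 0 with scaling to the spike-ins, and the higher ones 1 without any single LINE1 siDux library or RC siControl replicate 2. Ncl itself, whose product nucleolin works in rRNA production, was at 3219.9, 3429 and 3694 CPM in LINE1 siDux libraries and 4532, 6200.0 and 4648 CPM in RC siControl libraries (-0.57 ± 0.12).

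Of 40 translation factors, 24 fell and none rose (median -0.32), where 16.2% of all genes fell and 16.7% rose. Eif2s2, a subunit of the factor that brings initiator tRNA, was at 567, 598 and 618 CPM in LINE1 siDux libraries and 826, 1075 and 909.7 CPM in RC siControl libraries (-0.66 ± 0.11), and Eif3i changed by -0.63 ± 0.11, Eif2b3 by -0.50 ± 0.08 and the release factor Etf1 by -0.40 ± 0.08. In the fit of 6 libraries 11 translation factors were called lower, and with the spike-ins 0. Of 24 genes of cholesterol synthesis 11 fell and none rose (median -0.38), against the same 16.2% and 16.7% of all genes. Fdps, farnesyl diphosphate synthase, was at 102, 117 and 110 CPM in LINE1 siDux libraries and 151, 226 and 138 CPM in RC siControl libraries (-0.65 ± 0.14). Pmvk (-0.72 ± 0.15), Tm7sf2 (-0.92 ± 0.22) and Srebf2, the factor that controls the pathway (-0.44 ± 0.10), fell as well. The cholesterol genes called lower numbered 6 without LINE1 siDux replicate 1, 6 in the fit of 6 libraries and 0 with the spike-ins, and without RC siControl replicate 3 1 gene was called higher.

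Of the 10 defining markers of ES cells, which all passed the filter, 5 fell, none rose and 5 were not called (median -0.35). Over all genes tested, 16.2% fell and 16.7% rose. The summed level of the 10 markers was 4318 to 5096 CPM in LINE1 siDux libraries and 5426 to 9321 CPM in RC siControl libraries. Pou5f1, the factor OCT4, was at 709, 797 and 794 CPM in LINE1 siDux libraries and 1129, 1567 and 1061 CPM in RC siControl libraries (-0.71 ± 0.13, edgeR adjusted p = 0.000801). Sox2 was at 422, 433 and 406 CPM in LINE1 siDux libraries and 512, 658 and 533 CPM in RC siControl libraries (-0.43 ± 0.09). Each of these genes was lower in all 3 LINE1 siDux libraries. Against LINE1 siControl and against RC siDux none of the 10 markers was called, with medians of -0.05 and -0.30.

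Of 30 pluripotency factors 11 fell and 1 rose (median -0.27), against 16.2% and 16.7% of all genes. Dppa3, a maternal factor that protects DNA methylation, was at 13.5, 16.2 and 24.7 CPM in LINE1 siDux libraries and 36.4, 71.0 and 53.6 CPM in RC siControl libraries (-1.57 ± 0.32). Lin28a, an RNA-binding protein, changed by -0.58 ± 0.09, Zfp42 (REX1) by -0.53 ± 0.14 and Utf1 by -0.59 ± 0.14. Dppa5a, named after its values were seen, changed by -1.12 ± 0.32 but was not called without RC siControl replicate 2 (-0.34), whose 3311 CPM stood against 1227 and 906 CPM in the other RC siControl libraries. Fbxo15, a target of OCT4 and SOX2 named after its values were seen, was the factor that rose (0.52 ± 0.14). Nanog (-0.01 ± 0.17), Klf4 (0.24 ± 0.14) and Esrrb (-0.14 ± 0.17) did not pass the test. With the spike-ins 1 factor was called lower, and without LINE1 siDux replicate 3 or RC siControl replicate 2 the factors called higher numbered 2. Against LINE1 siControl none of the 30 was called (median -0.06), or 1 lower with the replicate number as a block. Against RC siDux 1 rose and 1 fell (median -0.28).

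Among 44 genes of heterochromatin and of retrotransposon repression, 18 fell and 1 rose (median -0.24), against 16.2% and 16.7% of all genes. Trim28, the co-repressor that silences retroviruses, was at 1686, 1928 and 2014 CPM in LINE1 siDux libraries and 2789, 2817 and 2485 CPM in RC siControl libraries (-0.52 ± 0.11). Cbx1, a heterochromatin protein, was at 164, 159 and 164 CPM in LINE1 siDux libraries and 246, 300 and 251 CPM in RC siControl libraries (-0.71 ± 0.10), and the deacetylase Hdac1 changed by -0.45 ± 0.07. Atf7ip, a partner of SETDB1, was the 1 that rose (0.58 ± 0.11), while Setdb1, the histone methyltransferase, did not pass the test (-0.02 ± 0.11). The higher genes numbered 2 without LINE1 siDux replicate 3 and 4 without RC siControl replicate 3, and the lower ones 11 in the fit of 6 libraries and 0 with the spike-ins. Against RC siDux 1 gene of this list fell and none rose. Against LINE1 siControl none was called, or 2 lower with the replicate number as a block.

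Genes of the interferon response and antigen presentation gave 11 of 36 lower and 5 higher (median -0.37), against 16.2% and 16.7% of all genes. The share of higher ones was below the 16.7%. Bst2, the protein tetherin that holds virus particles at the membrane, was at 26.1, 28.0 and 28.7 CPM in LINE1 siDux libraries and 53.5, 86.6 and 66.3 CPM in RC siControl libraries (-1.32 ± 0.15). Parp12 changed by -0.63 ± 0.10. Tap1, the peptide transporter of class I antigen presentation and also a p53 target, was at 27.3, 26.2 and 41.4 CPM in LINE1 siDux libraries and 6.66, 9.38 and 8.55 CPM in RC siControl libraries (1.94 ± 0.24), and Nlrc5, the activator of class I genes, rose by 2.10 ± 0.31. The groups did not overlap for Bst2, Tap1 or Nlrc5. The other genes that rose, Usp18, Rsad2 and Irf2, were named after their values were seen and stayed under 2 CPM in every library. The lower genes numbered 7 without LINE1 siDux replicate 1 or RC siControl replicate 3, and with the spike-ins 3 genes were called higher and none lower.

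Several genes that mark other cell types rose. Of 26 tested genes of the primitive streak and mesoderm 11 rose and none fell (median 0.56), where 16.7% of all genes rose, and their summed level was 599 to 608 CPM in LINE1 siDux libraries and 387 to 449 CPM in RC siControl libraries. Kdr, a receptor of vessel precursors, was at 7.09, 6.55 and 9.30 CPM in LINE1 siDux libraries and 2.87, 1.34 and 1.66 CPM in RC siControl libraries (1.99 ± 0.29). Nodal, the ligand that patterns the streak and is also made by ES cells, was at 114, 128 and 137 CPM in LINE1 siDux libraries and 66.1, 90.9 and 53.6 CPM in RC siControl libraries (0.85 ± 0.15). Mesp2 (1.68 ± 0.30), Snai1 (1.18 ± 0.20) and Wnt3a (2.25 ± 0.46), the last named after its values were seen, rose too. In the fit of 6 libraries 7 of these genes rose and with the spike-ins 3. Against LINE1 siControl and against RC siDux none was called, with medians of 0.35 and -0.11. With the replicate number as a block 1 was called higher against LINE1 siControl.

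Of 26 endoderm genes 8 rose and none fell (median 0.47), where 16.7% of all genes rose. However, their summed level was 1491 to 1582 CPM in LINE1 siDux libraries and 1479 to 1643 CPM in RC siControl libraries, so that the groups overlapped. Apob, a lipoprotein of yolk sac and liver, was at 7.23, 6.39 and 6.23 CPM in LINE1 siDux libraries and 2.05, 1.05 and 1.54 CPM in RC siControl libraries (2.10 ± 0.26). Pdgfra, a marker of primitive endoderm, rose by 1.97 ± 0.31 and Cubn, a receptor of visceral endoderm, by 1.72 ± 0.23, while Foxa1 rose by 1.78 ± 0.38 at under 2 CPM in both groups. Gata6, named after its values were seen, changed by 1.56 ± 0.48 and was not called without LINE1 siDux replicate 1 (1.38) or RC siControl replicate 2 (1.33). Without LINE1 siDux replicate 3 1 endoderm gene was called lower. With the spike-ins 5 were called higher. Whether a few differentiating cells contributed to these levels was not tested.

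Trophoblast genes gave 8 higher and 2 lower of 26 (median 0.38), where 16.7% of all genes rose and 16.2% fell. Their sums were 2762 to 2879 CPM in LINE1 siDux libraries and 2627 to 2757 CPM in RC siControl libraries. Hand1, a factor of giant cells, was at 6.05, 5.68 and 8.41 CPM in LINE1 siDux libraries and 4.10, 3.06 and 1.96 CPM in RC siControl libraries (1.18 ± 0.32), Sox21 rose by 0.98 ± 0.22 and Krt7 by 0.82 ± 0.20. The 2 that fell were Phlda2 (-0.62 ± 0.12) and Ascl2 (-1.26 ± 0.39), and Ascl2, named after its values were seen, was not called without LINE1 siDux replicate 1 (-1.10) or RC siControl replicate 2 (-0.43). The higher genes numbered 5 without LINE1 siDux replicate 1 or RC siControl replicate 3, 4 without LINE1 siDux replicate 3 and 0 with the spike-ins, and the lower ones 1 without LINE1 siDux replicate 1 or RC siControl replicate 2.

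Of 26 epiblast and neural genes 4 rose and 3 fell (median 0.00), both smaller shares than the 16.7% and 16.2% of all genes. Neurod1, a neuronal factor, was at 27.0, 36.1 and 47.5 CPM in LINE1 siDux libraries and 13.4, 17.1 and 11.8 CPM in RC siControl libraries (1.39 ± 0.19). Its reads numbered 394, 357 and 600 in RC siDux libraries, against 131, 179 and 199 in RC siControl libraries. RC siNcl libraries held 935, 1239 and 1504 of its reads, at smaller gene totals than the LINE1 siDux libraries with 800, 864 and 1112. Hes6 rose by 0.91 ± 0.24, Irx3 by 1.36 ± 0.38 and Neurog2, named after its values were seen, by 2.62 ± 0.81 at under 1 CPM in both groups. Dnmt3b, the methyltransferase of the epiblast, was at 311, 339 and 368 CPM in LINE1 siDux libraries and 595, 406 and 777 CPM in RC siControl libraries (-0.80 ± 0.19). The genes called lower numbered 1 without LINE1 siDux replicate 1, LINE1 siDux replicate 2 or RC siControl replicate 3, and 6 without RC siControl replicate 2. Against LINE1 siControl and against RC siDux none of the 26 was called. With the replicate number as a block 1 was called higher and 3 lower against LINE1 siControl. Of 39 germline genes 10 rose and 5 fell (median 0.13), against 16.7% and 16.2% of all genes. Taf7l, a testis transcription factor subunit, was at 20.2, 17.7 and 14.6 CPM in LINE1 siDux libraries and 5.74, 4.88 and 5.76 CPM in RC siControl libraries (1.67 ± 0.21). Tex101 (1.76 ± 0.24), Dmrtb1 (1.47 ± 0.19) and Tex15 (1.21 ± 0.18) rose too, and the germline genes called lower numbered 1 to 3 without any single LINE1 siDux library, RC siControl replicate 1 or RC siControl replicate 2.

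Fibroblast markers summed to 961 to 1081 CPM in LINE1 siDux libraries and 875 to 1184 CPM in RC siControl libraries, with 3 of 19 higher and 2 lower (median 0.03, and -0.02 with the spike-ins), again smaller shares than the 16.7% and 16.2% of all genes. Twist1 (1.35 ± 0.28), Fbln2 (1.24 ± 0.19) and Mmp2 (0.86 ± 0.22) rose and Col1a2 fell (-0.82 ± 0.22), and the lower ones numbered 1 without LINE1 siDux replicate 1, LINE1 siDux replicate 2 or RC siControl replicate 1. No listed fibroblast gene was at 0 counts in LINE1 siDux and 1 was in RC siControl. The part of such cells in the other results was not tested.

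Changes of cell cycle genes were small. Of 42 S-phase genes 18 fell and 1 rose (median -0.22), where 16.2% of all genes fell and 16.7% rose. Lig1, the ligase of replication, was at 254, 246 and 221 CPM in LINE1 siDux libraries and 315, 407 and 297 CPM in RC siControl libraries (-0.50 ± 0.11). Rfc5 (-0.50 ± 0.08) and Pola2 (-0.43 ± 0.08) fell, and Rrm2, a subunit of ribonucleotide reductase, rose (0.35 ± 0.08). The S-phase genes called lower numbered 11 without LINE1 siDux replicate 1, 10 without RC siControl replicate 2 and 4 in the fit of 6 libraries. Of 38 G2/M genes 9 fell and 3 rose (median -0.08), against 16.2% and 16.7% of all genes. Hmmr changed by -0.45 ± 0.08, Kif23 by -0.40 ± 0.09, Top2a by -0.35 ± 0.08 and Ckap2, which is also a p53 target, by 0.46 ± 0.09. The G2/M genes called higher numbered 1 without LINE1 siDux replicate 1, LINE1 siDux replicate 2 or RC siControl replicate 1, and those called lower 3 in the fit of 6 libraries.

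Replication-dependent histone mRNAs normally end without a poly(A) tail. Of 63 of these genes 18 passed the filter, 4 rose and none fell (median 0.65), where 16.7% of all genes rose. Hist1h2bc was at 12.9, 13.2 and 10.3 CPM in LINE1 siDux libraries, 6.15, 5.74 and 3.22 CPM in LINE1 siControl libraries, 9.70, 10.1 and 7.04 CPM in RC siDux libraries and 3.59, 3.06 and 3.27 CPM in RC siControl libraries (1.88 ± 0.23 against RC siControl). Hist1h4i (1.16 ± 0.31), Hist2h3c1 (1.54 ± 0.48) and Hist1h3g (1.52 ± 0.52) rose as well, at a few CPM or less. Hist2h3c1 had only 19 reads and Hist1h3g only 7 over the RC siControl libraries. Without LINE1 siDux replicate 2 or RC siControl replicate 3 the histone genes called higher numbered 2.

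The remaining large falls by the naming rule were of mixed kinds. Snrpe, a core protein of spliceosomal snRNPs, was at 66.1, 68.1 and 67.8 CPM in LINE1 siDux libraries, 109, 107 and 126 CPM in LINE1 siControl libraries, 63.3, 71.4 and 65.4 CPM in RC siDux libraries and 138, 369 and 128 CPM in RC siControl libraries (-1.65 ± 0.28). Both groups with the Dux siRNA were low for Snrpe, and RC siControl replicate 2 was far above the others. Gm514 (-1.65 ± 0.27), Grin1, a glutamate receptor subunit (-1.62 ± 0.39), Nrtn, the growth factor neurturin (-1.59 ± 0.31), Gm16516 (-1.52 ± 0.25), the kinase Pim2 (-1.43 ± 0.31), 2010107H07Rik (-1.35 ± 0.29) and the phospholipase Pla2g10 (-1.32 ± 0.16) complete the set. Pim2 was at 54.7, 61.4 and 90.8 CPM in LINE1 siDux libraries, 95.3, 95.6 and 185 CPM in LINE1 siControl libraries, 59.6, 67.4 and 111 CPM in RC siDux libraries and 135, 155 and 268 CPM in RC siControl libraries. Against RC siDux the largest falls by the naming rule were the homeobox gene Gbx2 (-1.29), Egln3 (-1.26), the amine oxidase Aoc3 (-1.24), the activin subunit Inhbb (-1.08) and Zfhx2 (-0.93), and each of these calls was lost without at least 1 library, with values between -0.78 and -1.43.

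In the table of repeats, 63 of 800 subfamilies tested (7.88%) were higher and 19 (2.38%) lower in LINE1 siDux than in RC siControl libraries, and the median change was 0.22, or 0.03 when repeats were scaled to their own totals and TMM factors. These counts moved with single libraries: the higher ones numbered 15 without LINE1 siDux replicate 1, 24 without LINE1 siDux replicate 2, 116 without LINE1 siDux replicate 3 and 107 without RC siControl replicate 1. The lower ones numbered 5 and 4 without LINE1 siDux replicates 1 and 2, and 32, 9 and 34 without RC siControl replicates 1, 2 and 3. None of the 6 L1Md subfamilies was called, with changes between 0.49 (L1Md_F) and 0.68 (L1Md_Gf). L1Md_T was at 3700, 3495 and 2526 CPM in LINE1 siDux libraries and 2815, 1483 and 1867 CPM in RC siControl libraries (0.66 ± 0.23, edgeR adjusted p = 0.0669), and L1Md_A was at 3440, 3304 and 2283 CPM in LINE1 siDux libraries and 2662, 1338 and 1677 CPM in RC siControl libraries (0.67 ± 0.25, adjusted p = 0.0763). In both, RC siControl replicate 1 lay above LINE1 siDux replicate 3. L1Md_A, L1Md_F2, L1Md_F3 and L1Md_T were called higher in DESeq2 (0.59 to 0.66) and with no filter (0.60 to 0.67), and L1Md_F2 and L1Md_F3 with the stricter filter (0.60 each). Without RC siControl replicate 1 all 6 L1Md subfamilies were called higher, at 0.78 to 1.04, and without LINE1 siDux replicate 3 all but L1Md_F, at 0.72 to 0.86. With the replicate number as a block all 6 were called higher as well, at 0.50 to 0.69. Of 90 other L1 subfamilies 15 rose and 2 fell (median 0.47).

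Of 15 subfamilies of intracisternal A particles (IAP) 2 rose and none fell, and of 87 MaLR subfamilies, a group of older LTR elements, 6 rose and 1 fell, against 7.88% higher and 2.38% lower of all repeats. None of the 5 ETn and MusD subfamilies was called. The elements described next belong to endogenous retroviruses and were picked by the naming rule, which takes the largest called rises and the IAPEz elements, so they do not stand for the class. MMERGLN-int, the internal part of a gammaretrovirus, was at 177, 164 and 173 CPM in LINE1 siDux libraries, 180.0, 154 and 154 CPM in LINE1 siControl libraries, 89.3, 84.8 and 78.8 CPM in RC siDux libraries and 89.4, 68.9 and 98.1 CPM in RC siControl libraries. It rose by 1.00 ± 0.12 against RC siControl (edgeR adjusted p = 0.000118) and by 1.02 against RC siDux (adjusted p = 8.55e-05), and its 6 libraries with the LINE1 ASO lay above the 6 with the RC ASO named here. MMERVK10C-int, a betaretrovirus, was at 289, 268 and 212 CPM in LINE1 siDux libraries and 125, 132 and 94.0 CPM in RC siControl libraries (1.13 ± 0.17). IAPEz-int, an intracisternal A particle, was at 520, 506 and 616 CPM in LINE1 siDux libraries and 342, 358 and 354 CPM in RC siControl libraries (0.64 ± 0.11). RLTR44-int (1.37 ± 0.28), RodERV21-int (1.25 ± 0.21), RLTR10C (1.08 ± 0.19) and MMVL30-int (0.98 ± 0.17) were the other large rises. With scaling to the spike-ins the 7 changes lay between 0.70 (IAPEz-int) and 1.5 (RLTR44-int), and none was called (adjusted p of 0.944 to 0.949).

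Of the large falls among repeats, (TTC)n, BC1_Mm, LTR16D1 and (GGAGAA)n rested on RC siControl replicate 2. BC1_Mm, a brain-specific RNA gene family, was at 72.4, 62.2 and 71.3 CPM in LINE1 siDux libraries and 83.6, 214 and 75.7 CPM in RC siControl libraries, and its change of -0.86 ± 0.25 became -0.20 without that library. (TTC)n changed by -1.45 ± 0.37 and by -0.42 without it, LTR16D1 by -0.92 ± 0.23 and -0.38, and (GGAGAA)n by -0.85 ± 0.24 and -0.34, and none of the 4 was then called. (CAT)n was at 61.9, 56.2 and 76.9 CPM in LINE1 siDux libraries and 120, 116 and 115 CPM in RC siControl libraries (-0.85 ± 0.14), and (CAACC)n changed by -0.94 ± 0.19. Against RC siDux 5 subfamilies (0.625%) were higher and 1 (0.125%) lower, 0.75% in all, MMERGLN-int, MMERVK10C-int (0.77) and RLTR10C (0.86) being among the higher. The higher ones numbered 1 without LINE1 siDux replicate 1, LINE1 siDux replicate 2 or RC siDux replicate 2, 2 without RC siDux replicate 3 and 3 without RC siDux replicate 1.

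**Figure D5:**
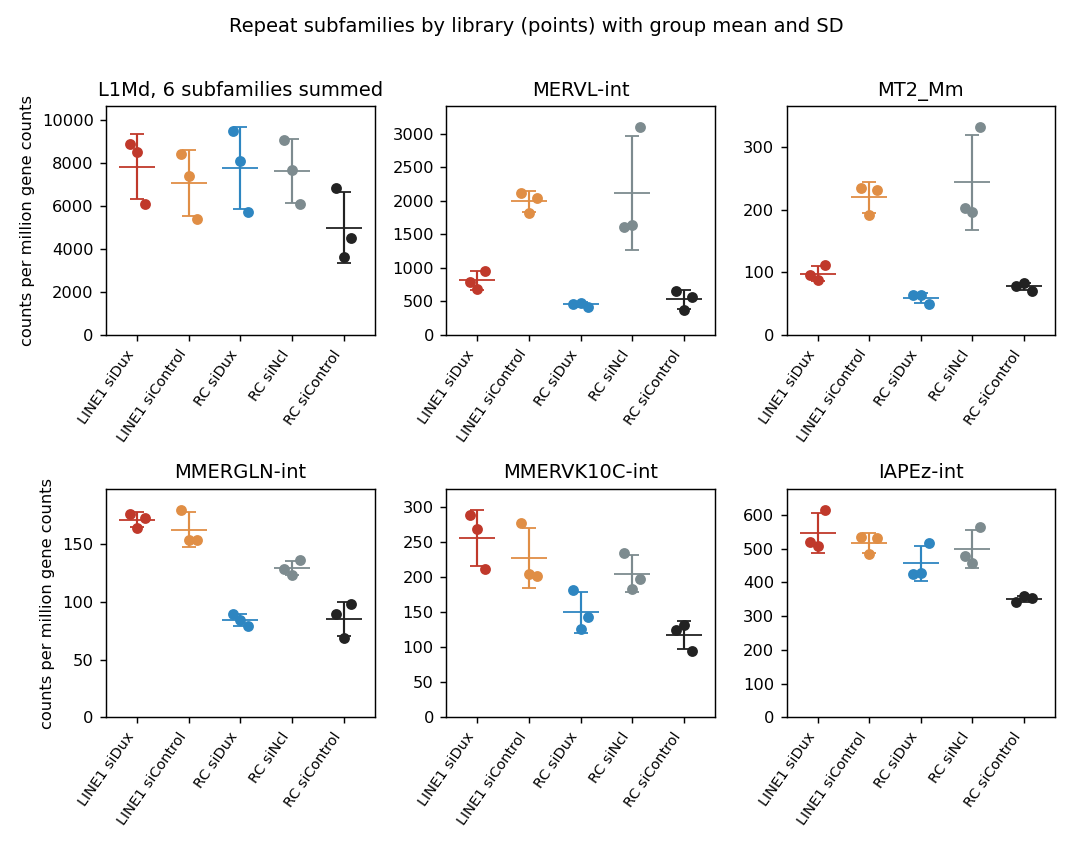
Levels of 6 repeat subfamilies or sums, in CPM of gene counts, in each library of the 5 groups (points), with the group mean (line) and SD (bars, n = 3). MMERGLN-int is high in both groups with the LINE1 ASO, at 154 to 180.0 CPM, while MERVL-int in LINE1 siDux libraries, at 686 to 958 CPM, lies far below LINE1 siControl, and the L1Md sum of LINE1 siDux overlaps that of RC siControl.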

How the data were processed

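RNA was sequenced from a NEBNext directional mRNA kit, per the labels' protocols. The authors deposited raw counts per gene and per repeat subfamily. Trim Galore 0.4.0, TopHat2 2.0.9, mm9, R 3.3.0 and DESeq2 1.12.3 are named in the submitters' processing notes, and the handling of strand and of reads with several matches was not stated. The 92 spike-in rows were left out of the 23284 genes. Genes and repeats were filtered with filterByExpr and tested with edgeR 4.0.16 (R 4.3.3) on all 15 libraries, with 5 groups, no block and TMM factors of the genes, and p-values were adjusted over all features of a table. The test was checked on counts simulated over 14530 genes for LINE1 siDux against RC siControl, where 78% of 2-fold rises and 71.4% of 2-fold falls were recovered. The simulation changed 49 or 50 genes for each fold and drew every library independently. In the data 32.9% of genes were called, so these rates may not hold there. Same-numbered replicates deviated together in LINE1 siDux and LINE1 siControl (correlations over genes of 0.593, 0.364 and 0.653), but not in all pairs with RC siControl (0.0556, 0.184, 0.203) or RC siDux (0.0964, 0.367, 0.483).

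Named were fixed genes, the 15 largest called changes a direction with at least 5 CPM and no overlap between groups (5 a direction in the other comparisons), the 4 tested members of each list with the smallest p, L1Md, MERVL and IAPEz repeats and the 6 largest called repeats a direction. Members, lists and this rule were chosen with earlier results of these data known. Promoters (250 bases before to 50 after the start) came from RefSeq's GRCm38.p6, whose coordinates were not converted to mm9. No deposited column was left unused. Some genes that the rule names are not reported here.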

Additional observations from a re-analysis of the deposited data

How the results depend on the processing

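For LINE1 siDux against RC siControl, higher and lower genes numbered 2449 and 2388, 1542 and 1039 in a fit of the 2 groups alone, 489 and 10 with scaling to spike-ins, and 1756 to 2373 and 1456 to 2425 with 1 library left out. With spike-in scaling 8 2-cell-like genes were called higher. Against LINE1 siControl, higher and lower genes numbered 80 and 45, 305 and 141 with the replicate block, 224 and 100 in DESeq2, 0 and 6 with spike-ins, 40 and 22 when thinned to the smallest total, and 4 to 34 and 7 to 18 with 1 library left out, with 50 higher in the 2 groups alone. Against RC siDux, 340 and 110 became 766 and 463 with the block, 571 and 336 in DESeq2, 38 and 3 with spike-ins, and 89 to 372 and 11 to 132 with 1 library left out, with 210 higher under the stricter filter, 351 lower in the 2 groups alone and 72 lower when thinned. Spike-in scaling moved the median of all genes to -0.12 against LINE1 siControl and -0.22 against RC siDux. Repeats (63 and 19) numbered 157 and 46 with the block, 15 and 1 in the 2 groups alone, 0 and 0 with spike-ins, 41 and 66 with totals and factors of the repeats themselves, and 15 to 116 and 4 to 34 with 1 library left out, with 31 lower under the stricter filter and 36 in DESeq2. Same-numbered replicates deviated together only in part with RC siControl (correlations of 0.0556, 0.184 and 0.203) and RC siDux (0.0964, 0.367 and 0.483). With RC siControl the same-numbered correlation was the highest for each LINE1 siDux library. How far the replicate numbers pair LINE1 siDux with these groups is therefore uncertain. With the block, MERVL-int (0.62) and all 6 L1Md subfamilies (0.50 to 0.69) were called higher against RC siControl. The cause of these moves was not tested.

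Values near 0 changed sign against RC siControl: Esrrb without LINE1 siDux replicate 3 (0.03, range -0.25 to 0.03 with 1 library left out), Nanog with the replicate block (0.00), in the 2 groups alone (0.00) and without LINE1 siDux replicate 1 (0.03), RC siControl replicate 1 (0.14) or 3 (0.08, range -0.19 to 0.14), Setdb1 without LINE1 siDux replicate 1 (0.04), RC siControl replicate 1 (0.08) or 3 (0.00, range -0.12 to 0.08), and Zfp352 without LINE1 siDux replicate 1 or 3 (-0.06 each, range -0.06 to 0.38). Against RC siDux, Ptprv (-0.04) and Zfp750 (-0.11) did so with spike-ins, and Zfp750 without LINE1 siDux replicate 3 (-0.01) or RC siDux replicate 2 (-0.03, range -0.03 to 0.35). None of these was called in either form. Of the named genes and repeats, 98 lost their call against RC siControl with spike-ins, and 14 without RC siControl replicate 2.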
